A study of Mus musculus with 10 samples.

Results

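The Hox genes were examined as a family, in mouse embryonic stem cells (ESCs) depleted of Wapal or Smc3. Members were chosen by name alone. They were the probe sets whose only gene symbol in the platform annotation was Hoxa, Hoxb, Hoxc or Hoxd followed by a number, ordered by cluster and paralog number. This gave 48 probe sets for 33 genes, out of 45037 probe sets and 18193 named genes tested. The Hoxa cluster had 16 sets for 9 genes, the Hoxb cluster 11 sets for 9, the Hoxc cluster 11 sets for 7 and the Hoxd cluster 10 sets for 8.

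The cells were of the CJ9 line, which derives from strain 129svj and was kept on gelatin without feeder cells. All 5 groups received a lentivirus, over 48 h with polybrene (10 µg/mL), and then puromycin (4 µg/mL) with the self-renewal factor LIF, and RNA was taken 48 h after infection. The control group, Empty Vector, carried the virus without a hairpin. The others carried Wapal shRNA1, Wapal shRNA2, Smc3 shRNA1 or Smc3 shRNA2, that is, a pair of independent hairpins against each target. Total RNA of each sample went on 1 Affymetrix whole-genome mouse expression array, with 2 arrays per group and 10 in all. The study's methods call the 2 samples of a group biological replicates. Neither they nor the labels say whether these were separate infections, so the p-values describe the scatter among these arrays.

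Hox proteins are homeodomain transcription factors that give cells their position along the body axis. Their genes lie in 4 clusters in which gene order follows the order of expression along the axis, low paralog numbers at the head end and high numbers at the tail end. In ESCs the clusters are a classic target of the Polycomb complexes, which keep them silent, and the architectural protein CTCF and cohesin bind at many sites within them. Smc3 is a core subunit of the cohesin ring, and Wapal (current symbol Wapl) is the factor that releases cohesin from chromatin. The comparisons ask whether loss of either protein changes Hox expression.

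Both targets were depleted on the arrays of their own hairpins. Wapl, at 2500 and 2649 in Empty Vector cells, read 217 to 1005 on the 4 Wapal shRNA arrays (log2 change -2.46 ± 0.10 (SE), adjusted p = 0.000123). Its loss was deeper on the arrays of hairpin shRNA2 (235 and 217) than on those of shRNA1 (929 and 1005). Smc3, at 1536 and 1555, read 176 to 223 on the 4 Smc3 shRNA arrays (-3.00 ± 0.10, adjusted p = 3.26e-05). Values without a unit are RMA intensities on a linear scale, and adjusted p-values come from limma with Benjamini-Hochberg adjustment over all 45037 probe sets. "Rose", "fell" and "passed" are used for an adjusted p under 0.05. The 10 markers of ESCs were all bright. Of 14 fibroblast markers measured, 13 were dim, and their summed intensity was 436 to 493 in Empty Vector, 367 to 436 with Wapal shRNAs and 403 to 483 with Smc3 shRNAs.

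Nearly all Hox probe sets were dim. Of the 48 sets, 44 had a mean log2 intensity under 6 (64 on the linear scale), as had 59.9% of all sets. The Hox sets had a median of 13 and reached from 5.3 on the lowest array to 135.9 on the highest. As a measure of background, the sets of 69 olfactory and vomeronasal receptor genes, which ESCs are not known to use, had a median of 10.4 and a 95th percentile of 26.3. Of the Hox sets, 34 lay at or under that percentile and 14 above it. Levels of different probe sets are not comparable as amounts of transcript, so brightness is used here only to say how far a set lies above background.

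**Figure D1:**
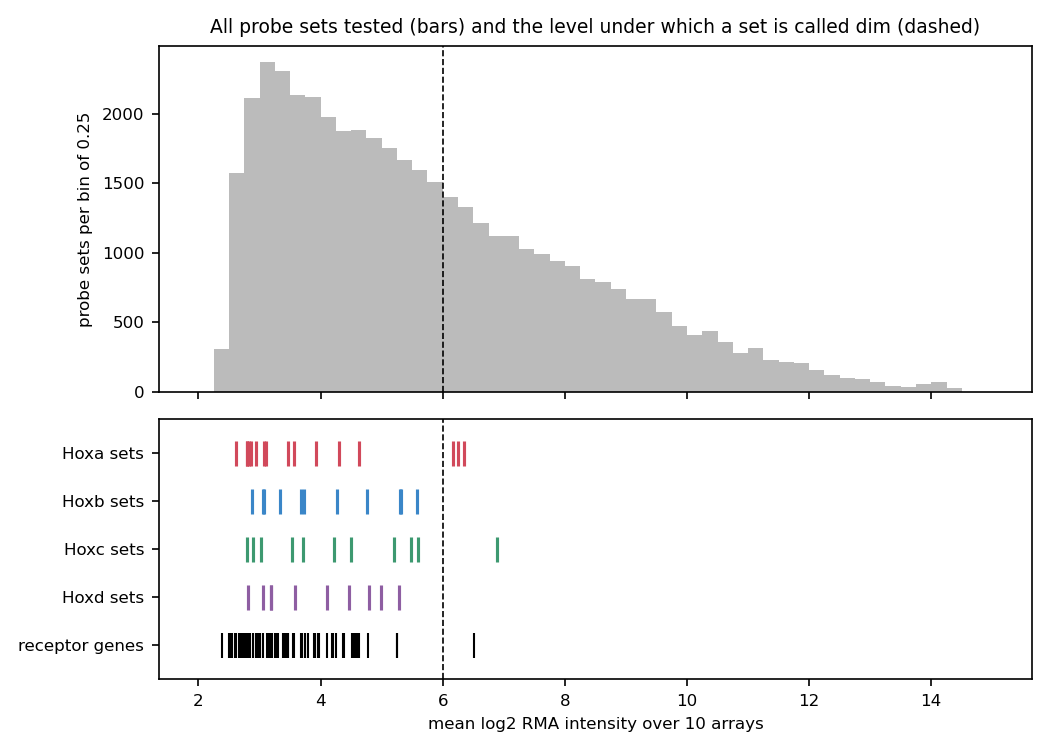
Mean log2 intensity over the 10 arrays for all 45037 probe sets tested (top, bars of 0.25) and for each Hox set by cluster and the 69 receptor genes (bottom, 1 tick per set). The dashed line marks the level of 6: only 4 Hox ticks lie to its right, 3 of Hoxa and 1 of Hoxc.

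The 4 sets that were not dim belonged to Hoxc9, Hoxa5, Hoxa9 and Hoxa7. Hoxc9, a thoracic patterning gene, read 118.9 and 120.0 in Empty Vector, 116.4, 118.0, 135.9 and 124.3 with Wapal shRNAs, and 101.6, 118.7, 126.6 and 107.5 with Smc3 shRNAs. Here and below, the 4 values of a target are those of shRNA1 replicates 1 and 2, then shRNA2 replicates 1 and 2. Its depleted arrays lay on both sides of the controls, and the changes of 0.05 ± 0.09 and -0.08 ± 0.11 did not pass. Hoxa7, also thoracic, read 63.5 and 69.8 in Empty Vector, 74.4, 70.6, 79.2 and 86.5 with Wapal shRNAs, and 67.5, 60.8, 74.2 and 78.8 with Smc3 shRNAs. All Wapal arrays stood above both controls by a small margin (0.22 ± 0.10, adjusted p = 0.223), whereas the Smc3 arrays overlapped them (0.07 ± 0.10).

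Hoxa9, a regulator of blood progenitors, read 64.3 and 70.7 on its brighter set in Empty Vector, 74.4, 90.3, 81.8 and 83.2 with Wapal shRNAs, and 74.6, 74.1, 71.7 and 79.7 with Smc3 shRNAs. Every depleted array exceeded both controls, yet neither change passed (0.29 ± 0.11, adjusted p = 0.163, and 0.15 ± 0.10, adjusted p = 0.419). Under the level of 6, and so dim, Hoxc13, a gene of hair and nail, read 45.2 and 50.3 in Empty Vector, 47.0, 51.7, 54.7 and 42.0 with Wapal shRNAs, and 45.3, 51.8, 47.9 and 48.2 with Smc3 shRNAs. These groups overlapped throughout (0.03 ± 0.13 and 0.02 ± 0.10). Hoxb3, a hindbrain gene, read 35.3 and 36.5 in Empty Vector, 34.9, 40.2, 48.7 and 44.6 with Wapal shRNAs, and 40.9, 37.6, 36.7 and 40.7 with Smc3 shRNAs. All Smc3 arrays and all but 1 of the Wapal arrays lay above the controls, without passing (0.22 ± 0.10, adjusted p = 0.238, and 0.12 ± 0.10, adjusted p = 0.546).

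Promoter sequence is a feature that the choice of members did not use. CpG-rich promoters are those at which Polycomb complexes are typically found in mammals. RefSeq windows (build GRCm38.p6) were available for 19 of the 33 genes, 21 windows in all because Hoxa10 and Hoxd11 have a pair of starts each, and the 250 bases before the start were read. Of the Hoxb genes only Hoxb1 and Hoxb4 had a window, and of the Hoxc genes only Hoxc4. The windows thus describe mostly the Hoxa and Hoxd clusters. Hox windows held a median of 13 CG dinucleotides and 59.2% G + C, beside 6 and 52.4% over all 32851 windows. Of the 21, 13 had 10 or more CG, as had 37.8% of all windows. Of the 9 genes that passed a test described below, 7 had a window, and Hoxb9 and Hoxb13 had none. The 4 shown are from these 7, the others being Hoxa5, Hoxa9 and Hoxc4, and their CG dinucleotides are in capitals, 5′ to 3′ on the gene's strand.
Hoxd1 (chr2:74762730-74762979, plus strand): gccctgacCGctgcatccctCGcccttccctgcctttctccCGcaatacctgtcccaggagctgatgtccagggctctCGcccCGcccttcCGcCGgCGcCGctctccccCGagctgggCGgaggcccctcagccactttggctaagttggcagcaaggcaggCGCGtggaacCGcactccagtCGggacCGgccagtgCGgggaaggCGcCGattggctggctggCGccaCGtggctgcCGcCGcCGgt
Hoxd13 (chr2:74667975-74668224, plus strand): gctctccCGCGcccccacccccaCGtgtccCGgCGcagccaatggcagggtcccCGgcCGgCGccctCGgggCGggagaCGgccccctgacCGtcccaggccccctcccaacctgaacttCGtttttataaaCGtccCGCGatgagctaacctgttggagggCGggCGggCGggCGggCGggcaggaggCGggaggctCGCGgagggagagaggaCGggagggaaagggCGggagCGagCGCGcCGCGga
Hoxd12 (chr2:74674763-74675012, plus strand): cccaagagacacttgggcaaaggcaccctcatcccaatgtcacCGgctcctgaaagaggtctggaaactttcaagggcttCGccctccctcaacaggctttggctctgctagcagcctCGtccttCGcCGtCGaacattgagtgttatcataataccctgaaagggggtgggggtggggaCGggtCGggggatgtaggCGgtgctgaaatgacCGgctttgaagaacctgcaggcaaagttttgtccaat
Hoxb1 (chr11:96365508-96365757, plus strand): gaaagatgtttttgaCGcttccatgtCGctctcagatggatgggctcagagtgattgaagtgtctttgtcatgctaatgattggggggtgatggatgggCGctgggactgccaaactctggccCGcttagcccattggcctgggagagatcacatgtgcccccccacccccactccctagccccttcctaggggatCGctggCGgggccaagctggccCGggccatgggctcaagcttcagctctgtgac
The first pair was CG-dense, with 24 CG in the Hoxd1 window (71.6% G + C) and 31 in that of Hoxd13 (74.4%). Hoxd12 had 10 (55.6%) and Hoxb1 had 7 (59.2%). Short motifs were searched on both strands of each window. The TATA box, TATAAA, was in 1 of the 7, that of Hoxd13, and in 2 of 21 Hox windows, beside 12.4% of all windows. The CCAAT box was in 5 of the 7 windows of genes that passed, the 4 shown and Hoxa5, and in 11 of 21, beside 33.8% of all. AGGTCA, the half-site of retinoic acid and related receptors, was in 1 of the 7, that of Hoxc4, and in 5 of 21, beside 14.0% of all. A match describes letters and not a bound site.

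With Wapal depletion, 3 of 48 Hox sets rose (Hoxd1, Hoxb9 and Hoxb13) and 0 fell. Over all probe sets, 2.08% rose and 3.83% fell, and over the 26995 dim sets 1.56% rose and 1.37% fell. The comparison set the mean of both Wapal shRNA groups against Empty Vector, and the same 2 Empty Vector arrays served the Smc3 comparison. All 3 genes were dim. None of the 3 passed after a further quantile normalization of the arrays (adjusted p = 0.0555 to 0.0905), and 1 passed, Hoxb13, where 16 was added to every value before the log.

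Hoxd1, an anterior paralog known for its role in pain-sensing neurons, had the highest log2 change with Wapal depletion in the family. It read 12.3 and 12.8 in Empty Vector, 20.8, 17.3, 18.5 and 24.6 with Wapal shRNAs, and 24.4, 13.9, 15 and 18.1 with Smc3 shRNAs. All 8 depleted arrays were above both controls, yet all 10 arrays lay under 26.3, the 95th percentile of the receptor genes. The signal rose by 0.68 ± 0.14 on the log2 scale with Wapal depletion (adjusted p = 0.0306). It rose by 0.76 ± 0.16 with Wapal shRNA2 alone (adjusted p = 0.0399), and the 0.59 ± 0.16 with Wapal shRNA1 did not pass (adjusted p = 0.0724). With Smc3 depletion the change was 0.47 ± 0.20 and did not pass (adjusted p = 0.219), the 2 arrays of Smc3 shRNA1 being 0.81 apart on the log2 scale. Without the lower of them, replicate 2, it was 0.67 and passed (adjusted p = 0.0299), and without replicate 1 it was 0.27. Wapal and Smc3 depletion differed by 0.21 ± 0.16 (adjusted p = 0.427). The Wapal call was lost in 5 of the 6 fits that left out 1 array, where the change was 0.57 to 0.78, and held only without Wapal shRNA2 replicate 1.

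Hoxb9, a gene of the thoracic skeleton, read 17.4 and 14.5 in Empty Vector. With Wapal shRNAs it read 24.6, 25.5, 18.6 and 23.2, and with Smc3 shRNAs 16.7, 19.2, 18.0 and 18.4. Wapal arrays all exceeded the controls, whereas 1 Smc3 array lay between them. All 10 arrays again lay under 26.3. The signal rose by 0.52 ± 0.12 with Wapal depletion (adjusted p = 0.0486) and by 0.65 ± 0.14 with Wapal shRNA1 alone (adjusted p = 0.0432), while Wapal shRNA2 gave 0.39 ± 0.14 (adjusted p = 0.165). The Smc3 change was 0.18 ± 0.11 (adjusted p = 0.396), and the difference between Wapal and Smc3 depletion passed (0.34 ± 0.10, adjusted p = 0.0337). No fit that left out 1 array kept the Wapal call (0.39 to 0.65).

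Hoxb13, the most posterior gene of its cluster, acts in the tail and in the prostate. It read 24.1 and 23.6 in Empty Vector, 30.1, 34.7, 32.8 and 33.3 with Wapal shRNAs, and 75.0, 68.9, 49.7 and 62.7 with Smc3 shRNAs. The 3 conditions did not overlap on any array, with Smc3 shRNAs highest and Empty Vector lowest. The Empty Vector arrays lay under 26.3 and the other 8 above it, so log2 changes from Empty Vector start within the background range and give no fold of transcript. The signal rose by 0.45 ± 0.10 with Wapal depletion (adjusted p = 0.0379), a call that was lost in each of the 6 fits without 1 array (0.40 to 0.51).

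**Figure D2:**
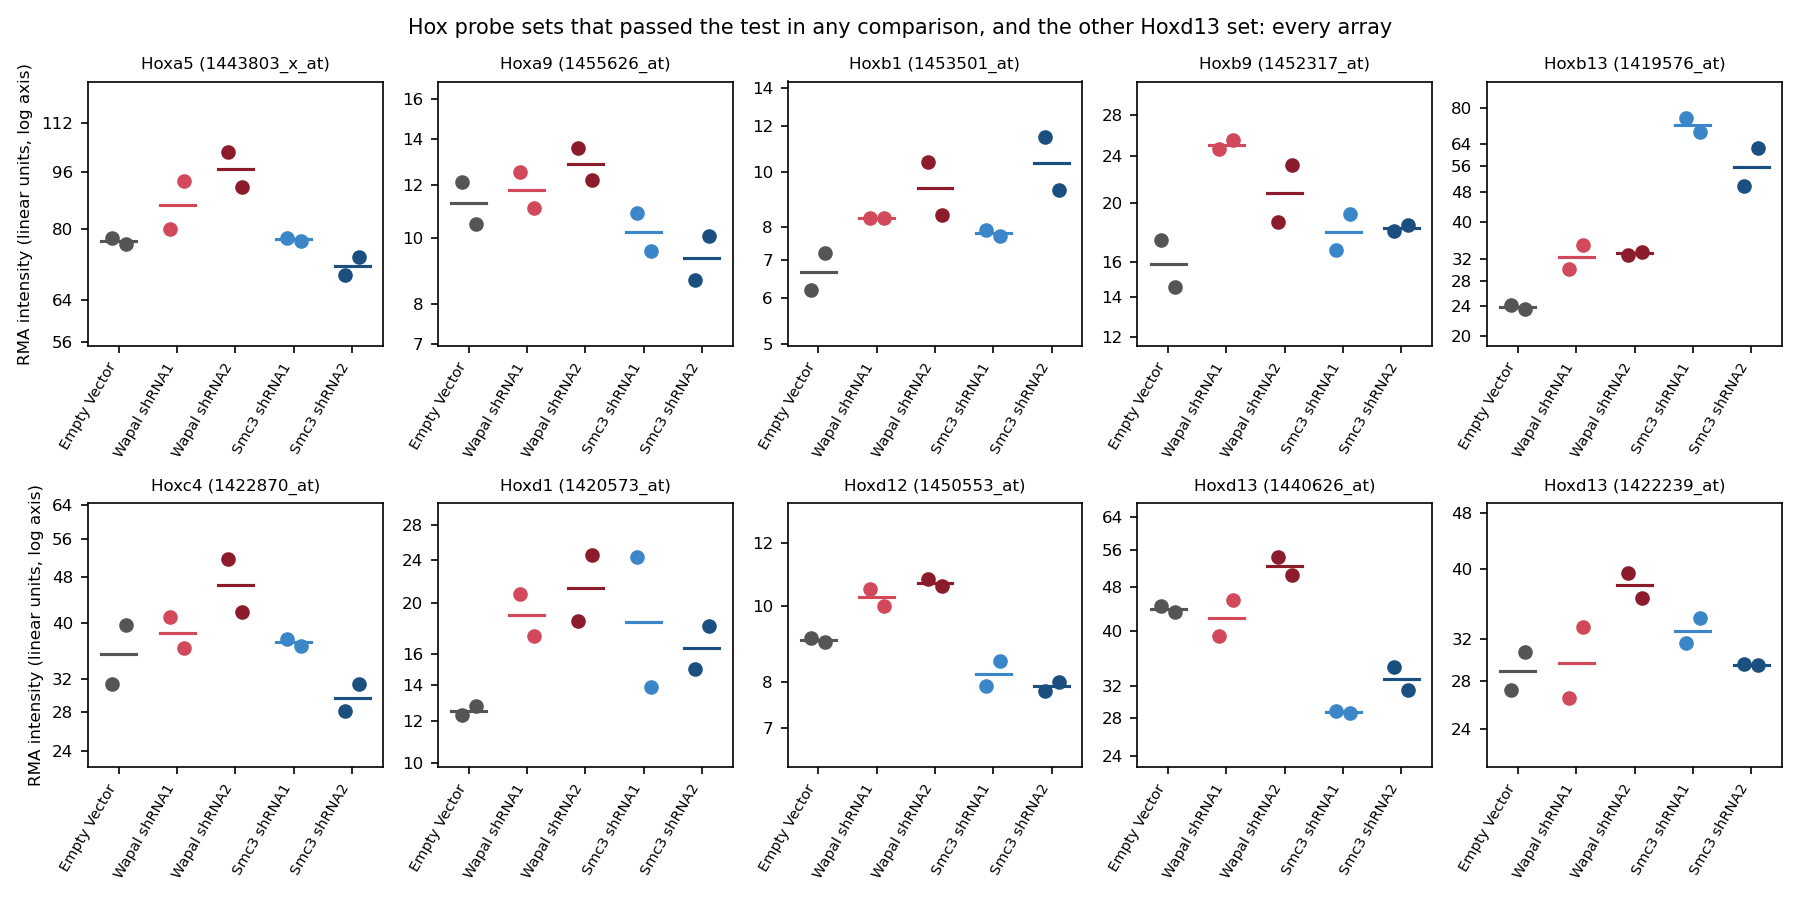
RMA intensity (log axis) on each of the 10 arrays for the 9 Hox sets that passed in any comparison and for the other Hoxd13 set. Points are arrays and bars are the geometric mean of a group of 2. Hoxb13 climbs from about 24 in Empty Vector to between 49.7 and 75.0 with Smc3 shRNAs, and the 2 Hoxd13 sets differ.

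With Smc3 depletion, 1 Hox set rose (Hoxb13) and 1 fell (a Hoxd13 set), and the other 46 did not pass. In all, 4.22% of probe sets rose and 3.41% fell, and of the dim sets 2.52% and 1.51%. The Hoxb13 signal rose by 1.41 ± 0.11 on the log2 scale (adjusted p = 0.00049), with rank 104 of all probe sets by p-value. Each hairpin alone gave the rise, 1.59 ± 0.13 with Smc3 shRNA1 (adjusted p = 0.000502) and 1.23 ± 0.13 with Smc3 shRNA2 (adjusted p = 0.00196). The call held in all 6 fits without 1 array, at 1.32 to 1.49. Hoxb13 was also higher with Smc3 than with Wapal depletion (log2 difference of Wapal from Smc3 -0.95 ± 0.09, adjusted p = 0.000104).

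Hoxd13, which patterns the digits, had 2 probe sets that differed. The first read 44.5 and 43.4 in Empty Vector, 39.2, 45.6, 54.3 and 50.4 with Wapal shRNAs, and 28.8, 28.6, 34.6 and 31.4 with Smc3 shRNAs. On it, all Smc3 arrays lay under all others, and the gene fell by 0.51 ± 0.09 (29.9% lower, adjusted p = 0.0126). Left out in turn, 2 arrays ended the call, Empty Vector replicate 1 and Smc3 shRNA2 replicate 2 (-0.55 to -0.48 over the 6 fits). On the second set the values were 27.2 and 30.7, then 26.5, 33.2, 39.6 and 36.5, then 31.6, 34.2, 29.5 and 29.4. There the Smc3 arrays overlapped the controls (0.11 ± 0.10, adjusted p = 0.589). The fall thus stood on 1 of 2 probe sets, and with Smc3 shRNA1 alone it was -0.61 ± 0.11 (adjusted p = 0.0102). With Smc3 shRNA2 alone the change of -0.41 ± 0.11 did not pass (adjusted p = 0.0506).

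Hoxb1, which sets the identity of a hindbrain segment, was close to passing in both comparisons. It read 6.2 and 7.2 in Empty Vector, 8.3, 8.3, 10.4 and 8.4 with Wapal shRNAs, and 7.9, 7.7, 11.5 and 9.3 with Smc3 shRNAs. All 8 depleted arrays exceeded both controls, at values within the range of the receptor genes. The changes were 0.40 ± 0.12 (adjusted p = 0.0899) and 0.43 ± 0.12 (adjusted p = 0.0691), and with Smc3 shRNA2 alone it rose by 0.63 ± 0.14 (adjusted p = 0.0284). With Smc3 shRNA1 alone the change was 0.22 ± 0.14 (adjusted p = 0.404), and the difference of shRNA1 from shRNA2 was -0.41 ± 0.14 (adjusted p = 0.1). The call of shRNA2 was lost in 5 of the 6 fits without 1 array and held only without Empty Vector replicate 2 (0.47 to 0.79).

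Other sets with high or low changes did not pass in either comparison. Hoxb2, a hindbrain gene, read 38.7 and 40.4 in Empty Vector, 47.8, 51.4, 46.4 and 61.4 with Wapal shRNAs, and 59.6, 42.8, 46.5 and 48.4 with Smc3 shRNAs. Again every depleted array was above both controls (0.38 ± 0.13, adjusted p = 0.115, and 0.31 ± 0.13, adjusted p = 0.229). Hoxc6, a thoracic gene, read 26.9 and 45.4 in Empty Vector, 42.0, 58.8, 40.1 and 61.2 with Wapal shRNAs, and 48.6, 42.3, 44.8 and 44.2 with Smc3 shRNAs. Its controls were 0.75 apart on the log2 scale, the widest gap of any Hox set between them, and the changes were 0.51 ± 0.25 (adjusted p = 0.258) and 0.36 ± 0.19 (adjusted p = 0.313). Each rested on which control was kept. With replicate 1 left out they were 0.13 and -0.01, and without replicate 2 they were 0.88 (adjusted p = 0.0822) and 0.74, the latter passing (adjusted p = 0.00949). A second Hoxc6 set read 16 and 21.8, then 21.6, 25.3, 22.8 and 25.5, then 24.0, 23.4, 23.4 and 25, with the Smc3 arrays all above the controls (0.36 ± 0.13, adjusted p = 0.143). Without Empty Vector replicate 1 that change was 0.14, and without replicate 2 it was 0.59 and passed (adjusted p = 0.0176). The remaining Hoxc6 set gave -0.06 ± 0.10 and -0.03 ± 0.10 with Wapal and Smc3 depletion.

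At the other end, Hoxb5, a gene of the neck and of enteric neurons, had the lowest value with Wapal depletion. It read 8.9 and 10.0 in Empty Vector, 7.3, 8.5, 7.8 and 7.8 with Wapal shRNAs, and 7.0, 9.5, 8.8 and 8.5 with Smc3 shRNAs. Wapal arrays were all under the controls, without passing (-0.26 ± 0.11, adjusted p = 0.181). The dimmer Hoxd8 set read 10.5 and 9.5, then 7.9, 9.0, 8.6 and 9.4, then 7.9, 8.3, 9.1 and 11.6 (Wapal -0.20 ± 0.10, adjusted p = 0.284). Its brighter set gave 0.01 ± 0.09, so the sets of this gene did not move alike.

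Hoxd3, a gene of the neck vertebrae, read 12 and 13.3 in Empty Vector, 12.2, 9.3, 13 and 10.4 with Wapal shRNAs, and 9.8, 13.6, 13.2 and 14.3 with Smc3 shRNAs, overlapping throughout (Wapal -0.19 ± 0.14). Hoxa10, which acts in the uterus, read 8.1 and 8.5, then 8.2, 7.0, 6.7 and 7.8, then 8.2, 6.8, 8.0 and 8.0 on its brighter set (-0.16 ± 0.11 with Wapal depletion). On its other set it read 8.4 and 7.5, then 7.0, 7.2, 7.0 and 8.3, then 6.5, 6.3, 6.0 and 7.1, all Smc3 arrays being under the controls (-0.30 ± 0.11, adjusted p = 0.138). The limb and uterus gene Hoxa11 was likewise under the controls on every Smc3 array. It read 15.9 and 16.3, then 15, 15.4, 18.9 and 16.2, then 11.7, 14.2, 15.5 and 14.5 (-0.21 ± 0.11, adjusted p = 0.299).

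**Figure D3:**
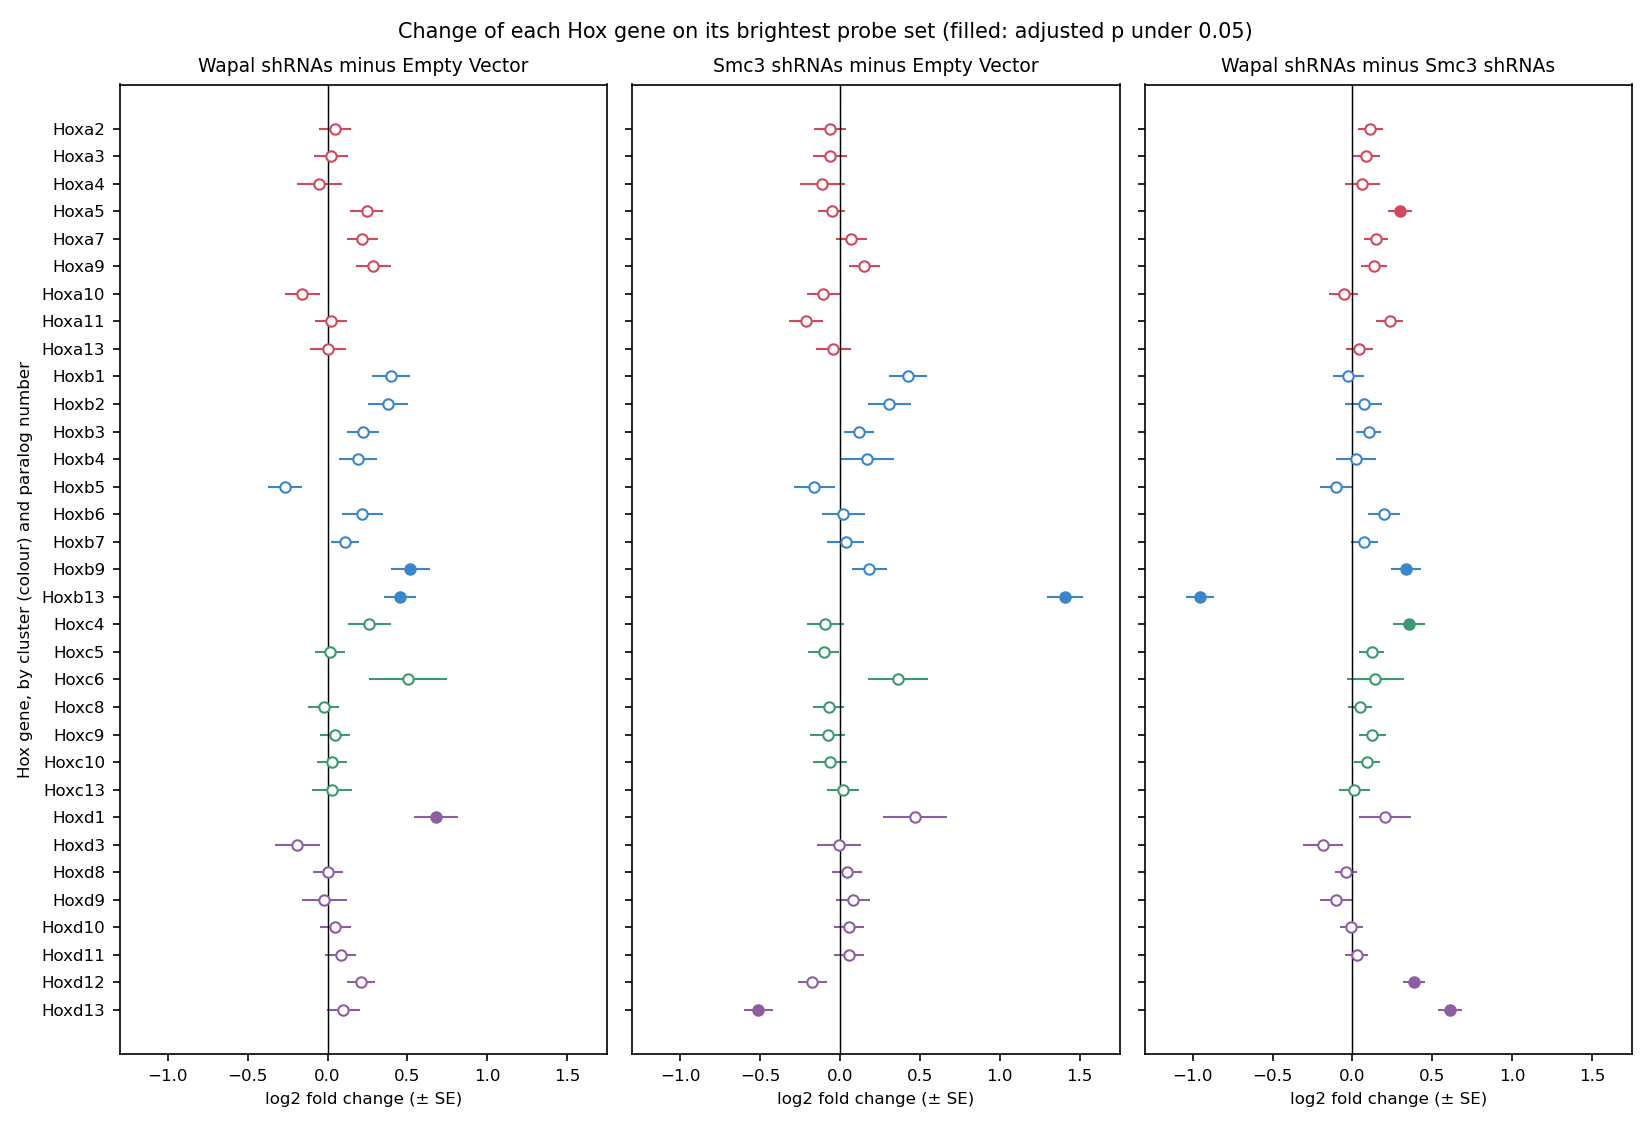
log2 fold change ± SE of the 33 Hox genes on their brightest probe set, by cluster (colour) and paralog number, for Wapal shRNAs against Empty Vector, Smc3 shRNAs against Empty Vector and Wapal against Smc3 shRNAs. Filled points have an adjusted p under 0.05: 3, 2 and 6 genes.

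Over the family as a whole, the median log2 change of the 48 sets with Wapal depletion was 0.09, and 36 (75%) were above 0, between -0.26 and 0.68. Over all probe sets the median was 0.02 with 53.2% above 0, over all dim sets 0.06 with 63.1%, and over the receptor genes 0.10 with 71%. With Smc3 depletion the Hox median was -0.00 with 23 of 48 above 0, beside 49.8% of all sets and 46.4% of the receptor genes. Normalizing the arrays by quantiles once more gave a Hox median of 0.05 with Wapal depletion.

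By cluster, Hoxb sets had the highest median in both comparisons. With Wapal depletion it was 0.22, with 10 of 11 sets above 0, beside 0.04 for Hoxa, 0.03 for Hoxc and 0.07 for Hoxd. With Smc3 depletion it was 0.12, with 10 of 11 above 0, beside -0.06 for Hoxa (4 of 16), -0.06 for Hoxc (3 of 11) and 0.05 for Hoxd (6 of 10). The Smc3 hairpins differed here, with a Hoxb median of 0.06 for shRNA1 (7 of 11 above 0) and 0.18 for shRNA2 (10 of 11). Both comparisons use the same Empty Vector arrays. After a further quantile normalization the Hoxb medians were 0.16 and 0.11, with 10 and 9 of 11 sets above 0, whereas the Wapal median of Hoxa turned to -0.02 (7 of 16). Within the Hoxb cluster, 2 of 11 sets passed with Wapal depletion (Hoxb9 and Hoxb13) and 1 with Smc3 depletion (Hoxb13). Over all probe sets, 2.08% rose with Wapal and 4.22% with Smc3 depletion, and over dim sets 1.56% and 2.52%. As a reference for signs, 63.1% of dim sets and 71% of receptor genes were above 0 with Wapal depletion. With Smc3 depletion these shares were 51.8% and 46.4%. Whether the Hoxb cluster differed from the others was not tested. By paralog number the Wapal medians were 0.16 for paralogs 1 to 4, 0.02 for 5 to 8 and 0.05 for 9 to 13, and no order along the axis was tested.

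**Figure D4:**
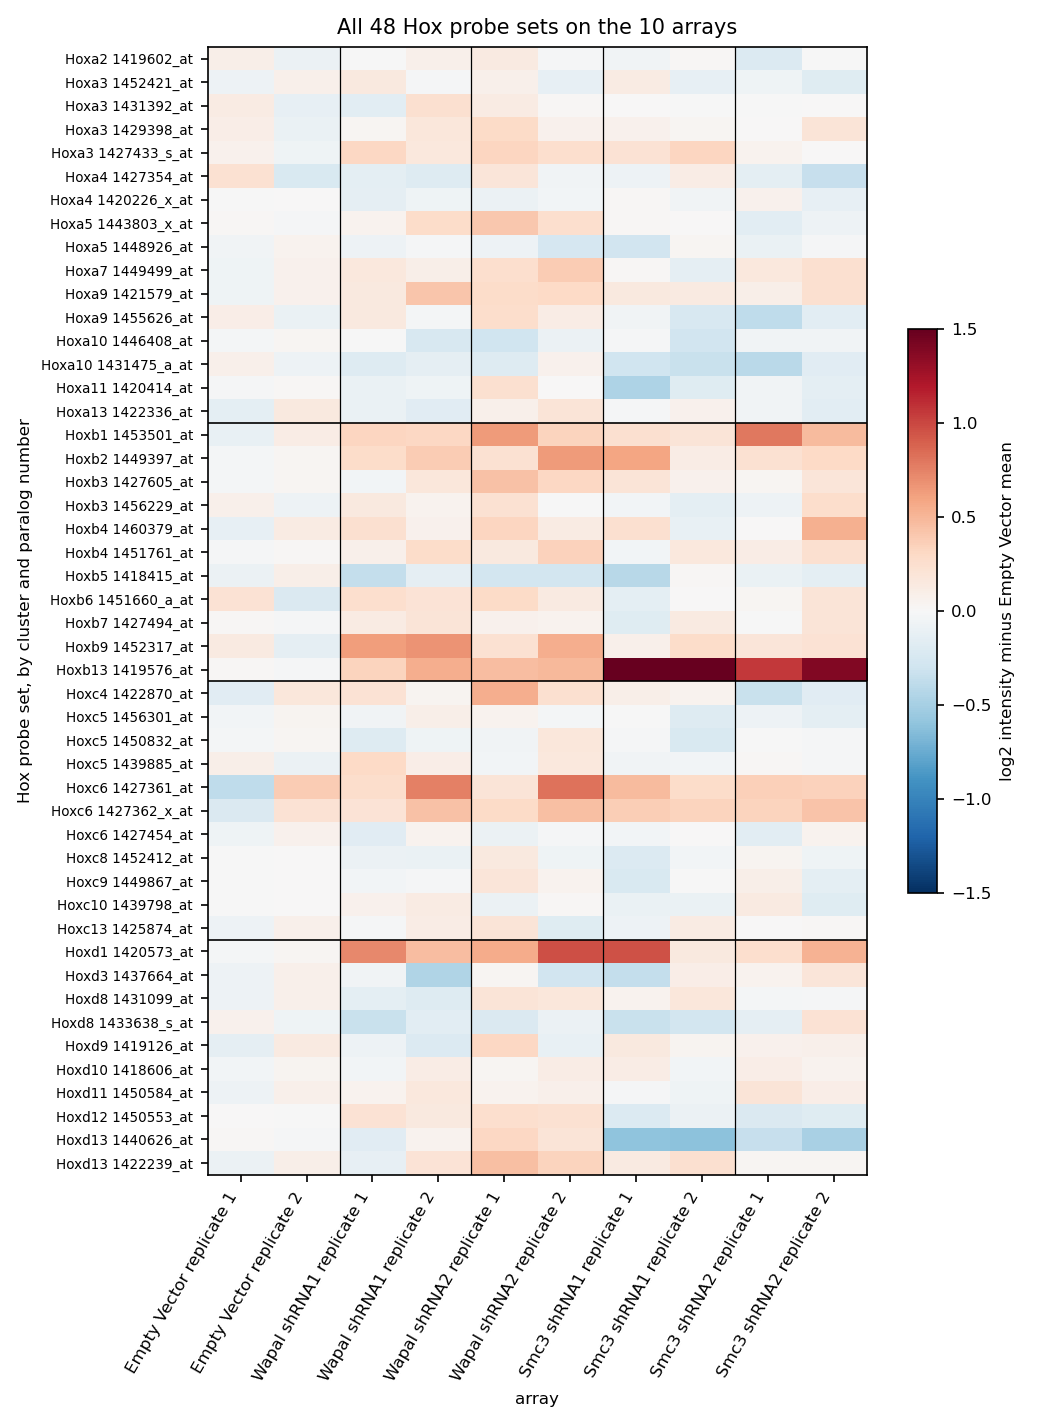
log2 intensity of each of the 48 Hox sets (rows, by cluster and paralog number) on each of the 10 arrays (columns), minus the mean of the 2 Empty Vector arrays. Red is higher and blue lower. Hoxb13 is darkest on the Smc3 arrays, and Hoxd13 sets differ in colour there.

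Counted by arrays alone, 12 of 48 Hox sets (25%) had all 4 Wapal arrays above both Empty Vector arrays, beside 14.9% of all probe sets and 16.8% of dim sets. They were sets of Hoxa3, Hoxa5, Hoxa7, Hoxa9, Hoxb1, Hoxb2, Hoxb4, Hoxb7, Hoxb9, Hoxb13, Hoxd1 and Hoxd12. All 4 Wapal arrays were under both controls for 3 sets (Hoxa4, Hoxb5 and Hoxd8), or 6.25%, beside 14.1% of all sets and 6.6% of dim sets. For Smc3 depletion 7 sets were wholly above (14.6%, beside 11.4% of all and 9.41% of dim sets) and 4 wholly under (8.33%, beside 12.2% and 8.48%). The 4 were sets of Hoxa10, Hoxa11, Hoxd12 and Hoxd13.

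Wapal and Smc3 depletion were then set against each other over the 10 arrays, a contrast in which Empty Vector cancels. The Smc3 samples are numbered in a separate, later range than the Empty Vector and Wapal samples. Any difference between these sets of arrays cannot be told apart from Smc3 depletion, here or against Empty Vector. Of the 48 sets, 6 were higher with Wapal depletion and 1, Hoxb13, was higher with Smc3 depletion. Of all probe sets, 6.71% were higher with Wapal and 10.7% higher with Smc3 depletion, and of dim sets 4.97% and 4.44%. Besides Hoxb9, the 6 were Hoxd13 (0.61 ± 0.08, adjusted p = 0.000491, first set), Hoxd12, Hoxc4, Hoxa9 (dimmer set) and Hoxa5 (brighter set). All 4 Wapal arrays exceeded all 4 Smc3 arrays for 4 Hox sets, beside 6.87% of all sets and 6.35% of dim sets, and the reverse held for Hoxb13, beside 7.66% and 2.93%. Among the 69 receptor genes, 4 were higher with Wapal and 0 with Smc3 depletion, with a median difference of 0.10 and 57 above 0. The Hox sets had a median of 0.08 with 35 of 48 above 0, so small differences toward Wapal were also seen at background.

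Hoxd12, a limb gene next to Hoxd13, read 9.1 and 9.0 in Empty Vector, 10.5, 10.0, 10.8 and 10.6 with Wapal shRNAs, and 7.9, 8.5, 7.8 and 8.0 with Smc3 shRNAs. The controls lay between the other groups and no arrays overlapped, at levels within the range of the receptor genes. The change was 0.21 ± 0.09 with Wapal depletion and -0.17 ± 0.09 with Smc3 depletion. Neither passed alone (adjusted p = 0.197 and 0.314), while their difference did (0.39 ± 0.07, adjusted p = 0.00295), as it did in all 10 fits without 1 array.

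Hoxc4, a neck and upper thoracic gene, read 31.4 and 39.7 in Empty Vector, 40.9, 36.2, 51.7 and 41.8 with Wapal shRNAs, and 37.6, 36.5, 28.1 and 31.3 with Smc3 shRNAs. Its Wapal and Smc3 arrays overlapped at 36.2 and 37.6, and the difference was 0.35 ± 0.10 (adjusted p = 0.0354). Hoxa5, a gene of the lung and neck, read 77.8 and 76.4 in Empty Vector, 80.2, 93.1, 102.2 and 91.5 with Wapal shRNAs, and 77.9, 77.2, 69.2 and 73.3 with Smc3 shRNAs. Every Wapal array was above every other array (difference 0.30 ± 0.08, adjusted p = 0.0216), but its other, dim set gave -0.01 ± 0.09. On the dimmer Hoxa9 set the values were 12.1 and 10.5, then 12.5, 11.1, 13.6 and 12.2, then 10.9, 9.6, 8.7 and 10.1 (0.33 ± 0.09, adjusted p = 0.0301). The brighter Hoxa9 set gave 0.13 ± 0.08 (adjusted p = 0.297). These smaller differences were less stable to the loss of 1 array. Of 10 such fits, the Hoxc4 call held in 3, without either Empty Vector array or without Wapal shRNA2 replicate 2. For Hoxb9 it held in 4, for Hoxa5 in 5 and for Hoxa9 in 6. Leaving out Smc3 shRNA2 replicate 1 ended all 4 of these calls.

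Single hairpins against Empty Vector added 1 gene, Hoxb1, to those above. Wapal shRNA1 gave 1 (Hoxb9), beside 4.63% of all probe sets in either direction, and Wapal shRNA2 gave 1 (Hoxd1), beside 3.75%. Smc3 shRNA1 gave 2 (Hoxb13 and Hoxd13), beside 8.69%, and Smc3 shRNA2 gave 2 (Hoxb13 and Hoxb1), beside 7.65%. Without 1 array, the Hoxb13 calls held in all 6 fits of each Smc3 hairpin, while Hoxd1 held in 0 of 6, Hoxb9 in 1 of 6 (without Empty Vector replicate 1) and Hoxd13 in 4 of 6 (not without either array of Smc3 shRNA1). Between the hairpins of 1 target, limma called 0 Hox sets for Wapal, beside 1.11% of all sets, and 0 for Smc3, beside 9.89%. Of dim sets, 0.156% were higher and 0.274% lower with shRNA1 than with shRNA2 for Wapal, and 2.92% and 2.29% for Smc3. At an unadjusted p under 0.05 there were 4 Hox sets in each of these comparisons, 8.33% of them. Beside this stood 16.7% of all sets for Wapal and 24.2% for Smc3, and 11% and 15.9% of dim sets.

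Of the 33 genes, 11 had more than 1 probe set, 26 sets in all. Their sets had the same sign of change in 7 of 11 genes with Wapal depletion and in 6 of 11 with Smc3 depletion. Another 3 probe sets match a pair of Hox genes each (Hoxd3 with Hoxd4, on 2 sets, and Hoxb7 with Hoxb8) and were not counted as members. None of these passed.

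Genes that act with or on the clusters were counted on their brightest set. Of 8 measured cofactors of the TALE class, which bind DNA together with Hox proteins, 0 passed with either depletion. The same held for 6 Cdx and ParaHox factors, 13 non-Hox neighbours of the clusters, 3 non-coding RNAs of the clusters and 2 even-skipped genes. Between Wapal and Smc3 depletion, 4 of these genes passed, named here after their values were seen. Of all probe sets, 6.71% were higher with Wapal and 10.7% higher with Smc3 depletion in that contrast. Evx1 beside the Hoxa cluster (0.37 ± 0.09, adjusted p = 0.0179) and Mtx2 beside the Hoxd cluster (0.31 ± 0.07, adjusted p = 0.0156) were higher with Wapal depletion. The TALE cofactors Pbx3 (-0.48 ± 0.12, adjusted p = 0.0203) and Pbx4 (-0.33 ± 0.08, adjusted p = 0.0122) were higher with Smc3 depletion. Of 17 genes of the retinoic acid pathway, a known inducer of Hox genes, 0 passed with Wapal depletion. With Smc3 depletion 3 rose and 1 fell, beside 4.22% and 3.41% of all probe sets. The binding protein Crabp2 rose by 0.84 ± 0.11 (adjusted p = 0.00306), the responsive gene Stra8 by 0.60 ± 0.15 (adjusted p = 0.0452) and the synthesis enzyme Aldh1a2 by 0.58 ± 0.12 (adjusted p = 0.0269), while the binding protein Crabp1 fell by 0.88 ± 0.12 (adjusted p = 0.00462). Aldh1a2, which was dim, changed by a like amount with Wapal depletion without passing (0.56 ± 0.14, adjusted p = 0.0584). Stra8 read 326.4 and 456.9 in Empty Vector and 783.2, 767, 399.7 and 494.9 with Smc3 shRNAs, so shRNA2 overlapped the controls.

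Among 15 genes of the Trithorax and MLL complexes, which methylate histones at active Hox genes, 4 fell with Wapal depletion and 2 with Smc3 depletion. Of all sets that were not dim, 7.51% fell and 2.85% rose with Wapal depletion, and 6.24% fell and 6.76% rose with Smc3 depletion. The 4 were the methyltransferases Setd1b (-1.33 ± 0.21, adjusted p = 0.0158), Kmt2c, Kmt2d and Kmt2b (-0.56, -0.56 and -0.46). The others were the shared subunits Rbbp5 (-0.49 ± 0.09) and Wdr5 (-0.46 ± 0.09). Among 27 Polycomb subunits, 2 rose and 2 fell in each comparison. Epop, a cofactor of Polycomb repressive complex 2, fell by 1.70 ± 0.16 and 0.96 ± 0.12. Cbx6 also fell in both, by 0.59 ± 0.11 and 1.03 ± 0.10, and Yaf2 rose in both, by 0.42 ± 0.09 and 0.48 ± 0.09. The remaining risers were Pcgf5 with Wapal depletion (0.67 ± 0.13) and Jarid2 with Smc3 depletion (0.41 ± 0.09). Of 11 cohesin and CTCF genes, the target fell and Stag2 rose in each comparison (0.39 ± 0.09 and 0.82 ± 0.09), and Ctcf did not pass (-0.07 ± 0.09 and -0.09 ± 0.09, adjusted p = 0.680 and 0.644). Their part in the Hox values was not tested.

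Cell type markers moved with the groups too. Of 10 ESC markers, Esrrb and Klf4 fell with both depletions, and Nanog and Zfp42 fell with Smc3 depletion. Of 14 fibroblast markers, Dcn rose and Thy1 and Pdgfrb fell with Wapal depletion, and Pdgfra, Pdgfrb and Dcn rose and Thy1 fell with Smc3 depletion. All of these but Thy1 were dim. Over all dim sets, 1.56% rose and 1.37% fell with Wapal depletion, and 2.52% rose and 1.51% fell with Smc3 depletion. Pdgfrb read 40.4 and 56.4 in Empty Vector, 22.3, 21.3, 39.5 and 41.8 with Wapal shRNAs, and 113.2, 104.1, 46.9 and 46 with Smc3 shRNAs. With shRNA2 of either target it thus overlapped the controls. Pdgfra with Smc3 shRNA2 (26.7 and 23.8) also overlapped its controls (24.4 and 20.5), unlike with shRNA1 (41.9 and 38.5). Of 8 mesoderm markers, 6 of them dim, 0 passed in either comparison. Of 9 neural markers, 6 of them dim, Tubb3 fell in both and Otx2 rose with Smc3 depletion (1.37 ± 0.10, adjusted p = 0.000247). Tubb3 and Otx2 were not dim. The part of these genes in the Hoxb13 and Hoxd13 values was not tested, and in bulk RNA more cells with a transcript and more transcript per cell cannot be told apart.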

How the data were processed

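RNA of 10 samples was measured on Affymetrix whole-genome mouse expression arrays, 1 array per sample. The authors deposited 1 normalized intensity per probe set and array on a linear scale, made with RMA (robust multi-array average) per the submitters' processing notes, with no version given. RMA subtracts background, equalizes the distributions of the arrays and summarizes probes, so differences near background are understated. The value table holds no background flags.

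Intensities were turned into log2 values. Of 45101 probe sets, 64 controls were left out. The platform annotation gave 34945 probe sets 1 symbol, 932 several and 9160 none. Each of 9 comparisons was a contrast of group means in limma 3.58.1 (R 4.3.3; lmFit, eBayes, two-sided) over all probe sets, with a Benjamini-Hochberg adjusted p under 0.05 as threshold. Wapal and Smc3 comparisons used the 6 arrays of the target and Empty Vector, and Wapal against Smc3 used all 10. The code was tested on simulated data. Arrays carry no read depth, so their number, 2 per group, limits the precision.

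Named with all values were the Hox sets that passed in any comparison, the 10 brightest, and for each depletion the 6 with the highest and the 4 with the lowest fold change. A gene stands on its brightest set. Other lists were counted, naming up to 4 members that passed. Members, lists and alternatives were chosen with earlier results of these data known. Alternatives were a further quantile normalization, an offset of 16, a filter on dim sets, a variance trend, 1 fit of 10 arrays, the replicate number as a block, a split of the arrays noted earlier, and leaving out each array.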

Additional observations from a re-analysis of the deposited data

Results flagged for a closer look

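Values differed between Wapal and Smc3 depletion for 7 Hox probe sets, by limma's test of the difference over all 10 arrays. The Smc3 samples are numbered in a separate, later range. Any difference between these sets of arrays cannot be told apart from Smc3 depletion. Each value is the log2 mean of the Wapal shRNA groups minus that of the Smc3 shRNA groups. Hoxb13 was lower with Wapal than with Smc3 depletion (-0.95, adjusted p = 0.000104). The other 6 were higher with Wapal depletion. They were Hoxd13 on 1 of its 2 sets (0.611, adjusted p = 0.000491), Hoxd12 (0.385, adjusted p = 0.00295), Hoxa5 on its brighter set (0.299, adjusted p = 0.0216), Hoxa9 on its dimmer set (0.329, adjusted p = 0.0301), Hoxb9 (0.335, adjusted p = 0.0337) and Hoxc4 (0.352, adjusted p = 0.0354). Of these sets, only that of Hoxa5 was not dim, and the other Hoxa5 set, which was dim, gave -0.01. In the same test, 4 of the 69 receptor genes were higher with Wapal depletion and 0 were lower.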

How the results depend on the processing

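No alternative could tell Smc3 depletion apart from a difference between the Smc3 arrays and the others. The rise of Hoxb13 with Smc3 depletion and its difference from Wapal depletion passed under every alternative that tested the set. The 3 Wapal calls did not. A further quantile normalization left 0 of them, an offset of 16 left 1, and leaving out 1 array left 0 to 1. Leaving out the dim sets removed nearly all members, which left 0 calls with Wapal depletion, 0 with Smc3 depletion, 0 with each single hairpin and 1 in Wapal against Smc3. For Wapal shRNA1 and for Wapal shRNA2, the quantile normalization, the offset and the replicate block each left 0 calls, while the variance trend gave 2 each. Without 1 array the calls ranged from 1 to 4 with Smc3 depletion, with Smc3 shRNA1 and with Smc3 shRNA2, from 3 to 7 in Wapal against Smc3, from 0 to 1 with Wapal shRNA1, and were 0 with Wapal shRNA2. The Smc3 change of Hoxc6 was -0.014 to 0.739 in these fits, against 0.36 with all arrays, and turned negative without Empty Vector replicate 1, 1 sign change among the named values. The cause of the other changes was not tested.

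The replicate numbers did not pair the samples: over 10 pairs of groups the deviations correlated at -0.16 to 0.06. With the replicate number as a block, Wapal depletion gave 2 calls, Hoxd1 and Hoxc6 (0.51, adjusted p = 0.0412). An earlier reading of these data had split the arrays into Empty Vector replicate 1, Wapal shRNA1 and Smc3 shRNA2 against the rest. That split separated 123 probe sets by over 0.3 on the log2 scale and 0 Hox sets, and with it as a term the counts stayed at 3 and 2.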

Other observations

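Of the 3 non-coding RNAs of the clusters, all dim, Hoxb5os came nearest to passing with Wapal depletion (0.44 ± 0.11, adjusted p = 0.0594). It read 22.7 and 22.3 in Empty Vector, 26.4, 33.2, 31.4 and 31.3 with Wapal shRNAs, and 25.1, 31.7, 22.1 and 31.6 with Smc3 shRNAs. All 4 Wapal arrays lay above both controls. It was singled out after its values were seen.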
